A study of Homo sapiens with 7 samples.

Results

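The replication-dependent histone genes of chromosome 6 were examined in H3K27ac HiChIP, an assay that recovers pairs of DNA sites lying close together in the nucleus where at least one site carries acetylated lysine 27 of histone H3, a mark of active promoters and enhancers. The rule for the genes used position and name: protein-coding genes between 25.7 and 28.3 Mb of chromosome 6 (hg19) with a symbol of the H1, H2A, H2B, H3 or H4 families. This rule gave 52 of the 20163 protein-coding genes, made up of 6 H1, 12 H2A, 13 H2B, 10 H3 and 11 H4 genes. A gene was linked to a loop when an anchor of the loop overlapped a window of 500 bp centred on one of its start sites.

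The data came from 7 samples of 3 established human cancer cell lines. Ishikawa, an endometrial adenocarcinoma line, gave 4 samples: 2 received the vehicle DMSO for 1 h and 2 received 17β-estradiol (E2) at 10 nM for 1 h. T-47D, a breast ductal carcinoma line, gave 1 sample and LNCaP, a prostate carcinoma line, gave 2, and the labels state no treatment for either. Each line was represented by 1 pooled loop list, so no value here has a replicate error, DMSO and E2 were not compared, and intervals cover counting error only. A count of read pairs reflects both how often 2 sites met and how much H3K27ac they carried, which cannot be told apart here. Ishikawa was cut with DpnII and the other lines with MboI, though anchor edges on chromosome 6 fell on the same sequence, GATC, in every list. Sonication, read length and depth followed the same split. The paper also describes hormone-depleted medium before estrogen inductions, and only the Ishikawa samples carry a treatment label. Ishikawa thus differs from the others in protocol and treatment as well as in cell type, and these cannot be told apart. As a check of the labels, with markers chosen when earlier results of these data were known, all 9 marker genes of the 3 lines had their highest share of read pairs in the line they mark, among them KLK3, the gene of prostate-specific antigen, with 2936 read pairs in LNCaP, none in T-47D and 6 in Ishikawa.

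Replication-dependent histone genes supply the bulk of the histones that package newly copied DNA, and they are transcribed mainly in S phase. Their transcripts lack introns and end in a stem-loop in place of a poly(A) tail. The genes lie in clusters, the largest on the short arm of chromosome 6, and in dividing cells active clusters gather at the histone locus body, a nuclear structure that contains the coactivator NPAT and the factors that trim histone transcripts. Histones H2A, H2B, H3 and H4 form the core of the nucleosome, and H1 binds the linker DNA between nucleosomes.

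The promoters at both ends of the strongest loop between histone genes in each list follow, to show promoters that lay in the anchors of the best supported contacts between histone genes: H2AC8 and H3C6 in Ishikawa, H3C1 and H2AC4 in T-47D, and H2AC13 and H4C11 in LNCaP. The contacts were measured between whole anchors, and where an anchor held several histone promoters, 1 was printed. Each run is the 150 bases before the RefSeq start site on the gene's own strand, 5′ to 3′, from the GRCh38.p14 assembly. Capitals mark matches on either strand to 3 motifs. The TATA box was searched as TATAAA. The box bound by the factor NF-Y was searched as CCAAT. The core of the octamer that POU factors bind was searched as ATGCAAA.
H2AC8 (chr6:26216771-26216920, plus strand): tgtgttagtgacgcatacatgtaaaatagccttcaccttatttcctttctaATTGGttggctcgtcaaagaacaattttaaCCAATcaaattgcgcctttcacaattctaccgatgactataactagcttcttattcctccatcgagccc
H3C6 (chr6:26224028-26224177, plus strand): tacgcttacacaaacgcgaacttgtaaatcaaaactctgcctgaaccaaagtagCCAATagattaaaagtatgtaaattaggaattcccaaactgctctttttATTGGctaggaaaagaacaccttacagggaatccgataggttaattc
H3C1 (chr6:26020301-26020450, plus strand): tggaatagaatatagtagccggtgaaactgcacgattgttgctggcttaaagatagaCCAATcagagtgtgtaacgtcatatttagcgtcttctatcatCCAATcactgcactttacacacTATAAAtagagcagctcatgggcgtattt
H2AC4 (chr6:26033619-26033768, minus strand): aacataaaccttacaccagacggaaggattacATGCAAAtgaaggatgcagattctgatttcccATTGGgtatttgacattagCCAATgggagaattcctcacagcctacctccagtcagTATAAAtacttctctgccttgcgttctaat
H2AC13 (chr6:27808023-27808172, plus strand): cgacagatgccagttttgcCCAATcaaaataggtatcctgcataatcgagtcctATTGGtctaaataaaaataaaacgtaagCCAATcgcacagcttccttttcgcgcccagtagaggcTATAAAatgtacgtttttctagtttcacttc
H4C11 (chr6:27823942-27824091, plus strand): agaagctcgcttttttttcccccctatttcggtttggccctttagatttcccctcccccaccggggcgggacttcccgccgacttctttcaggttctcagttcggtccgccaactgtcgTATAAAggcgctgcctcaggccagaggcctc

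RefSeq promoter sequences, each from 250 bases before to 50 bases after a start site, were matched for 47 of the 52 genes. A TATA box stood in 68.1% of these promoters, against 11.5% of the 35116 promoters of the RefSeq table. The CCAAT box stood in 85.1% against 34.6%, and the families divided on it: every H1, H2A, H2B and H3 promoter matched had one, whereas 2 of 9 H4 promoters did. The octamer core was found in 10 of 13 H2B and 9 of 11 H2A promoters, in 1 of 8 H3 promoters and in none of the 6 H1 and 9 H4 promoters, against 4.46% of all promoters. Divergent H2A and H2B genes share these windows in part, so their matches are not independent. The letters describe the windows and were not compared with the loop counts.

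The 52 genes fell into 4 runs when split at gaps of more than 200 kb between start sites. The first run held the divergent pair H2AC1 and H2BC1, testis-specific core histone genes, with start sites at 25726790 and 25727005. The second run, the longest, held 29 genes from H1-1 at 26018015 to H4C8 at 26285866. The third held 5 genes from H2BC11 at 27100574 to H2AC12 at 27114885, and the fourth held 16 genes from H2BC13 at 27775707 to H2BC17 at 27861203.

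The 4 runs were linked unevenly across the lists. At least 1 loop was found for 27 of the 52 genes in Ishikawa (51.9%, 95% Wilson interval 38.7 to 64.9, against 57.3% of all protein-coding genes), for 38 in T-47D (73.1%, 59.8 to 83.2, against 49.2%) and for 38 in LNCaP (against 58.1%). None of the 16 genes of the fourth run had a loop in Ishikawa, whereas 14 did in T-47D and 16 in LNCaP. The fourth run carried 118 loops with 1073 read pairs in T-47D, whereas LNCaP had 202 loops there with 4490. In Ishikawa the nearest anchors lay 39005 to 100870 bases from the promoter windows of the fourth run, and within 50 kb of the run the list held 1 anchor with 2 loops and 6 read pairs. No loop under 3 read pairs is in the lists, which were also filtered on false discovery rate, so a gene without a loop may still have weaker contacts.

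The second run was linked in all lists, with 22 of 29 genes in Ishikawa, against 22 in T-47D and 18 in LNCaP. Its genes carried 40 loops with 269 read pairs in Ishikawa. The T-47D values were 247 loops and 2941 read pairs, and those of LNCaP 270 and 6220. In the third run all 5 genes were linked in Ishikawa, against 2 in T-47D and 4 in LNCaP, with 12, 25 and 82 loops. The first run, H2AC1 and H2BC1, had no loop in any list. The other genes without a loop in any list were the linker histone gene H1-1 and the H3 gene H3C8, but their windows ended 772 bases from an anchor in LNCaP (H1-1) and 705 bases from one in T-47D (H3C8).

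**Figure D1:**
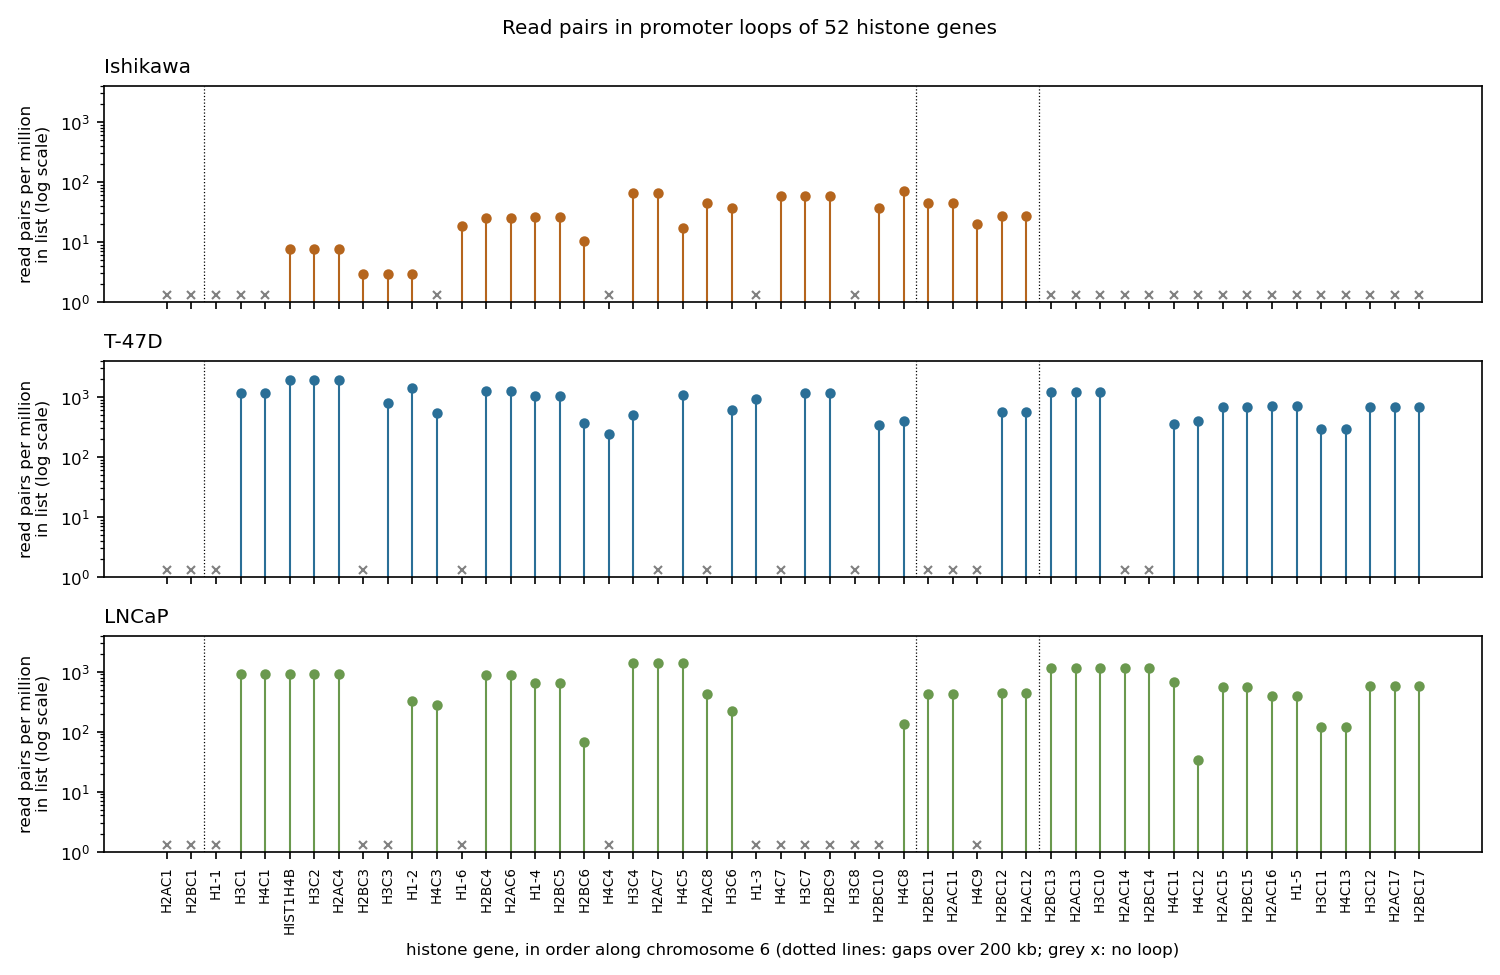
Read pairs in promoter loops of each of the 52 histone genes, scaled to 1000000 read pairs of the list (y axis, log scale), in order along chromosome 6 (x axis), with 1 panel per cell line. Circles are values of the pooled lists, grey crosses are genes without a loop and dotted lines separate the 4 runs. The fourth run is empty in Ishikawa, where the highest gene, H4C8, reached 72.1, against 1902 for HIST1H4B in T-47D and 1377 for H3C4 in LNCaP.

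Histone gene loops took 0.0325% of the read pairs of the Ishikawa list (338 read pairs in 52 loops), 1.04% of the T-47D list (3651 in 311 loops) and 0.548% of the LNCaP list (9895 in 477 loops). The counting intervals of these shares were 0.0292 to 0.0361%, 1.01 to 1.07% and 0.537 to 0.559%. They take read pairs as independent and hold no spread between samples, so they do not test a difference between lines. A linked histone gene had a median of 4 loops and 27 read pairs in Ishikawa, close to the 4 loops and 21 read pairs of all linked genes. In T-47D the medians were 23.5 loops and 250 read pairs for histone genes against 4 and 23 for all linked genes, and in LNCaP 41 and 1061 against 9 and 72. Because the lists differ in depth, genes were called higher or lower between lists after scaling to 1000000 read pairs of the list. Read pairs given below for single genes, loops and partners are unscaled unless stated. Scaling turned some orders of T-47D and LNCaP: H1-2 stood at 1421 and 320, and HIST1H4B at 1902 and 914. It kept others, as for H3C4 at 498 and 1377.

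The linker histone genes were linked in part. H1-2 had 3 read pairs in Ishikawa, against 499 in T-47D and 578 in LNCaP, and H1-4 had 27, 363 and 1167. H1-5, of the fourth run, had 0, 250 and 721 read pairs. H1-3 was linked in T-47D alone, with 329 read pairs, and the testis-specific H1-6 in Ishikawa alone, with 19. The Ishikawa values were the lowest for every H1 gene linked in more than 1 list.

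Among H2A genes, 6 of 12 were linked in Ishikawa, against 7 in T-47D and 11 in LNCaP, and among H2B genes 8, 9 and 9 of 13. Divergent genes with start sites within 500 bp of each other made up 9 pairs, each of an H2A and an H2B gene except H3C12 with H2BC17, of which 3 lay in 1 anchor in Ishikawa, against 6 in T-47D and 8 in LNCaP. Such genes have identical values, as H2BC4 and H2AC6 did, with 26 read pairs in Ishikawa, against 442 in T-47D and 1562 in LNCaP. H2BC12 and H2AC12 of the third run had 28, 195 and 803, while their neighbours H2BC11 and H2AC11 had 46 in Ishikawa, against 0 in T-47D and 761 in LNCaP. H2AC14 and H2BC14 were linked in LNCaP only, through a wide anchor that also covered H2BC13, H2AC13 and H3C10 (2093 read pairs).

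Among H3 genes, 5 of 10 were linked in Ishikawa, against 9 in T-47D and 7 in LNCaP, and among H4 genes 5, 9 and 8 of 11. H3C4 was among the genes with the most read pairs in both Ishikawa (69) and LNCaP (2486), with 175 in T-47D. The neighbours HIST1H4B, H3C2 and H2AC4 shared 1 anchor in every list and had the most read pairs of any histone genes in T-47D, 668, against 8 in Ishikawa and 1650 in LNCaP. H4C8, the last gene of the second run, led the Ishikawa list with 75 read pairs and had 141 in T-47D and 245 in LNCaP. H3C7 and H2BC9 had 60 read pairs in Ishikawa, 412 in T-47D and no loop in LNCaP, where the nearest anchor lay 24351 and 25330 bases from their windows. Their neighbour H4C7 had 60 read pairs in Ishikawa and no loop in either other list.

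The unit behind these values is the anchor rather than the gene. The linked genes lay in 17 anchors in Ishikawa, against 24 in T-47D and 19 in LNCaP, with median widths of 5.995, 3.36 and 6.90 kb. Anchors with 2 or more histone promoters numbered 8, 11 and 11 and held 18, 25 and 30 genes, with at most 3, 3 and 5 genes in 1 anchor. A gene could therefore be linked in 1 list and not in another through the position of an anchor edge alone. H2AC7, a neighbour of H3C4, had 2486 read pairs in LNCaP and 69 in Ishikawa but none in T-47D, where the anchor over H3C4 stopped 474 bases short of its window. H2BC6 was reached through an alternative start site in LNCaP, so its values of 130 read pairs in T-47D and 121 in LNCaP belong to different anchors.

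Of all histone genes, 15 were linked in all 3 lists (28.8%, against 33.4% of all protein-coding genes): HIST1H4B, H3C2, H2AC4, H1-2, H2BC4, H2AC6, H1-4, H2BC5, H2BC6, H3C4, H4C5, H3C6, H4C8, H2BC12 and H2AC12. A further 17 were linked in T-47D and LNCaP but not Ishikawa (32.7%, against 10.9%), 14 of them in the fourth run. Those linked in 1 list only were 4 genes in Ishikawa (H2BC3, H1-6, H4C7 and H4C9, 7.69% against 12.9%), 2 in T-47D (H4C4 and H1-3, 3.85% against 2.09%) and 2 in LNCaP (H2AC14 and H2BC14, 3.85% against 5.62%).

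Most read pairs of histone gene loops ran to another histone promoter in each pooled list. Loops between 2 anchors that both held a histone promoter took 58.9% of the read pairs of histone gene loops in Ishikawa (95% Wilson interval 53.6 to 64.0), 79.3% in T-47D (78.0 to 80.6) and 76.0% in LNCaP (75.2 to 76.8). Adding the promoters of other genes brought the promoter share to 59.8%, 84.5% and 82.1%, against 23.3%, 48.6% and 36.2% over all promoter loops of the same lists. Distal anchors, which hold no promoter of a protein-coding gene, took the remaining 40.2%, 15.5% and 17.9%. Counted as loops, contacts between histone promoters were 27 of 52 in Ishikawa, 207 of 311 in T-47D and 139 of 477 in LNCaP. In LNCaP these loops were thus a minority by number and a majority by read pairs, with a median of 25 read pairs per loop against 5 for loops to distal anchors.

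**Figure D2:**
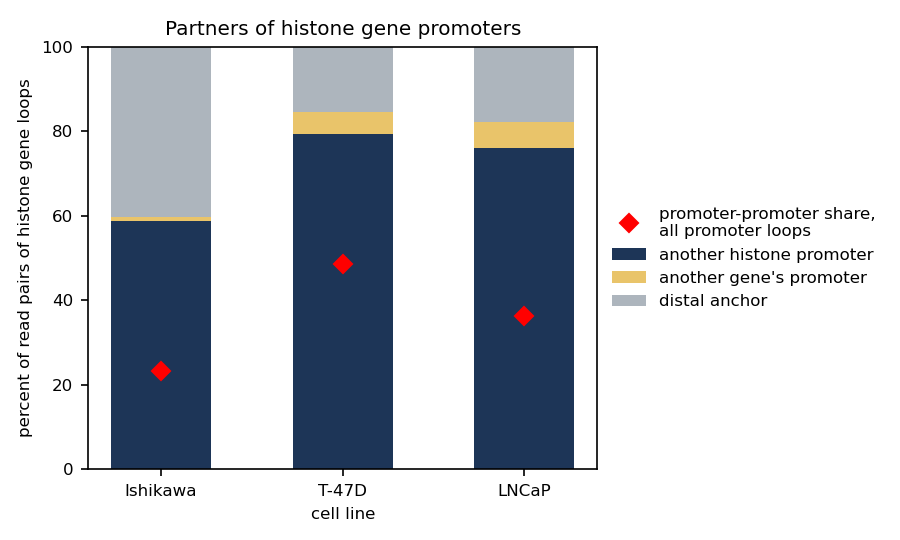
Percent of the read pairs of histone gene loops (y axis) that ran to another histone promoter, to the promoter of another gene or to a distal anchor, in each cell line (x axis), stacked to 100%. Red diamonds give the promoter-promoter share of read pairs over all promoter loops of the list, 23.3%, 48.6% and 36.2%, which lies below the 58.9%, 79.3% and 76.0% that ran between histone promoters.

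The best supported loop of a histone gene in T-47D, with 114 read pairs, joined the anchor of H3C1 and H4C1 (chr6:26019667-26023654) to that of HIST1H4B, H3C2 and H2AC4 (chr6:26025928-26035370), 9.0 kb apart, and ranked 79 among all loops of the list. The next, with 88 read pairs, joined the latter anchor to H1-2, and the next, with 69, joined H2BC4 and H2AC6 to H1-4 and H2BC5. Each of these contacts lay inside the second run. The loop with 88 read pairs joined H1-2 to genes of other histone families. H3 and H4 genes stood at both ends of the loop with 114, and H2B genes at both ends of that with 69. Which families met in those 2 loops cannot be told. In LNCaP the strongest loop, with 393 read pairs and rank 164, lay in the fourth run and joined the anchor of H2BC13, H2AC13, H3C10, H2AC14 and H2BC14 (chr6:27773040-27785509) to H4C11 (chr6:27786590-27794282). A further 352 read pairs joined H1-4 and H2BC5 to H3C4, H2AC7 and H4C5, and 306 joined H2BC4 and H2AC6 to the same anchor. In Ishikawa the strongest loop, with 22 read pairs, ran from H4C8 to a distal anchor (chr6:26304141-26311366), and the strongest between histone genes, with 16, joined H2AC8 (chr6:26215812-26220182) to H3C6 (chr6:26222133-26228154).

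Each pair of histone genes was scored as joined when a loop ran between their anchors. Of the 1326 possible pairs, 67 were joined in Ishikawa (5.05%), against 564 in T-47D (42.5%) and 607 in LNCaP (45.8%). Where both genes had a loop, 19.1% of 351 pairs were joined in Ishikawa, 80.2% of 703 in T-47D and 86.3% of 703 in LNCaP. Pairs inside 1 anchor, which cannot be scored and count as not joined in these shares, numbered 12, 17 and 33.

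**Figure D3:**
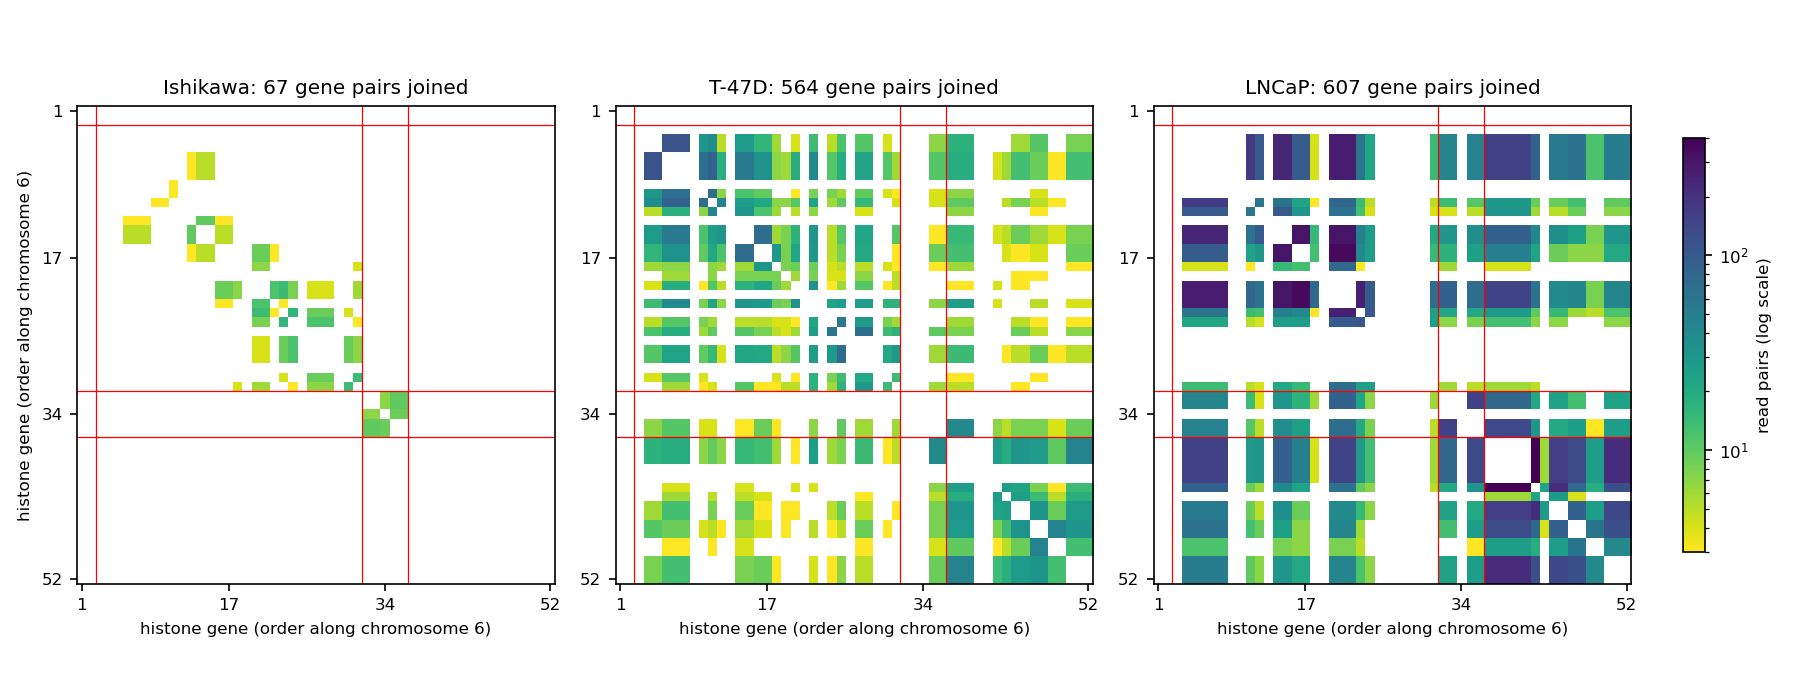
Read pairs joining each pair of the 52 histone genes (both axes, order along chromosome 6 from 1 to 52) in the 3 lists, on a log colour scale. White cells have no loop or lie inside 1 anchor, and red lines mark the limits of the 4 runs. Filled blocks beyond the red lines occur in T-47D and LNCaP, with 564 and 607 pairs joined, whereas the 67 pairs of Ishikawa stay near the diagonal inside the second run and the third.

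The joined pairs were set against all other pairs of linked protein-coding genes at the same distance. Below 50 kb, 60.5% of histone pairs were joined in Ishikawa against 49.4% of other pairs, 86.5% against 71.9% in T-47D and 72.4% against 75.2% in LNCaP. From 50 to 200 kb the shares were 13.5% against 20.5% in Ishikawa, 91.5% against 49.98% in T-47D and 95.8% against 65.5% in LNCaP. All histone pairs inside the same anchor, which cannot be scored and count as not joined, fell below 50 kb. In LNCaP they were 33 of 127 histone pairs there, with 92 joined. Among other pairs they were 1587 of 9297, with 6993 joined. The LNCaP order below 50 kb thus cannot be read as less joining of histone pairs. The histone pairs of Ishikawa fell on both sides of other pairs over these distances. Those of T-47D stood above other pairs in both ranges, and those of LNCaP did so from 50 to 200 kb.

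At longer distances the shares of histone pairs in these lines remained above those of other pairs. From 200 to 1000 kb, 87.6% of the histone pairs linked in T-47D were joined against 8.47% of other pairs, and 91.5% against 17.8% in LNCaP. From 1000 to 2000 kb, 70.1% were joined against 0.488% in T-47D (227 of 324 pairs) and 85.7% against 1.87% in LNCaP (269 of 314). In Ishikawa no histone pair was joined beyond 200 kb. This covered 105 linked pairs from 200 to 1000 kb and 32 from 1000 to 2000 kb. Taken as independent, these pairs would allow shares of up to 2.86% and 9.38%. Other pairs were joined in 1.91% and 0.0347% of cases. Pairs share anchors and genes, so the pairs are not independent, the true limits are wider and all these shares are descriptions.

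**Figure D4:**
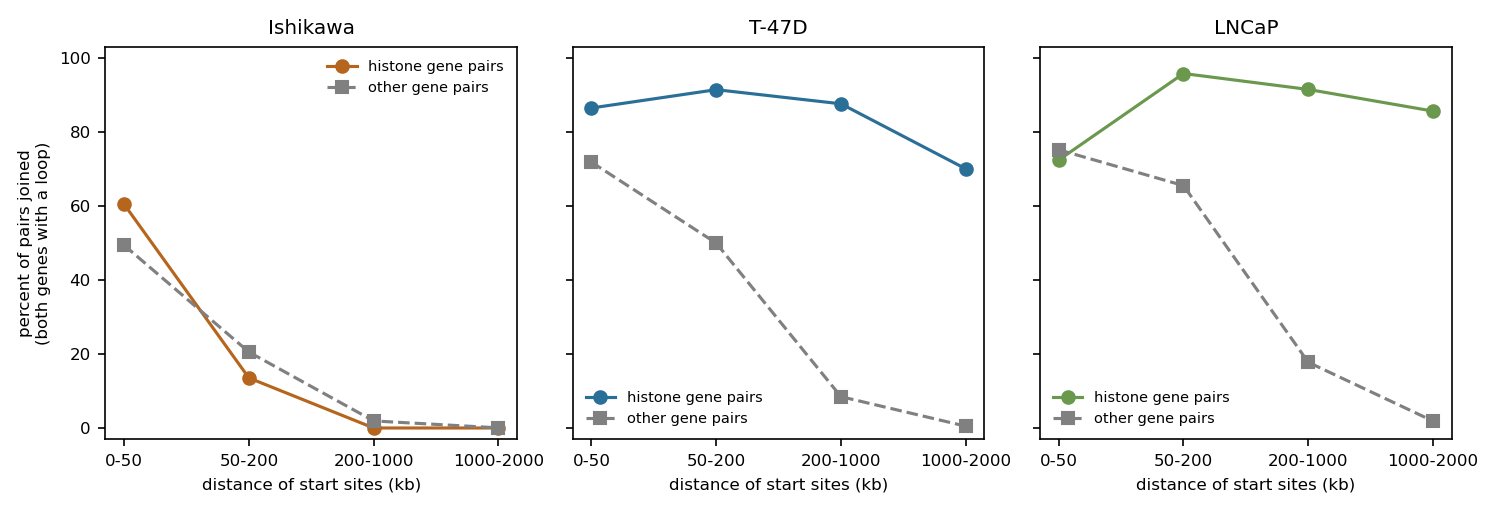
Percent of gene pairs joined by a loop (y axis), among pairs in which both genes had a loop, by distance between start sites in kb (x axis), in each cell line. Solid lines with circles are pairs of histone genes and dashed grey lines with squares are pairs of other protein-coding genes. Histone pairs stay at 70.1% or above in T-47D and at 72.4% or above in LNCaP up to 2000 kb, and reach 0 beyond 200 kb in Ishikawa. Pairs inside the same anchor count as not joined, which lowers the shares below 50 kb. In LNCaP these were 33 of 127 histone pairs.

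The long contacts joined the runs to each other. In T-47D 79 loops with 558 read pairs ran between different runs, 19.3% of the read pairs between histone promoters. The corresponding LNCaP loops numbered 77, with 2223 read pairs or 29.6%. Of the anchor pairs possible from the second run to the fourth, 61 of 112 were joined in T-47D and 47 of 70 in LNCaP. From the third run to the fourth 7 of 7 were joined in T-47D and 11 of 14 in LNCaP, and from the second to the third 11 of 16 and 19 of 20. Inside runs nearly all anchors were joined: 107 of 120 pairs of the second run in T-47D and 42 of 45 in LNCaP, and 21 of 21 and 19 of 21 pairs of the fourth. Ishikawa, with no anchor in the fourth run, joined 24 of 91 anchor pairs in the second, 3 of 3 in the third and 0 of 42 between them.

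A few anchors carried the strongest contacts between runs. In T-47D the anchor of H2BC13, H2AC13 and H3C10 at the start of the fourth run was an end of all 3: with H2BC12 and H2AC12 (39 read pairs, 662 kb), with H4C5 (26, 1573 kb) and with HIST1H4B, H3C2 and H2AC4 (19, 1746 kb). In LNCaP the anchor over the same 3 genes and H2AC14 and H2BC14 was again an end of all 3. It was joined by 155 read pairs to H3C1, H4C1, HIST1H4B, H3C2 and H2AC4 (1752 kb), by 147 to H3C4, H2AC7 and H4C5 (1580 kb) and by 135 to H2BC12 and H2AC12 (666 kb).

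The median span of histone gene loops was 32.0 kb in Ishikawa, where a binomial interval over loops at 95% ran from 23.7 to 48.2. It was 176 kb in T-47D (140 to 221), and LNCaP loops had a median of 390 kb (339 to 472), against 43.6, 90.9 and 122 kb over all promoter loops. Loops longer than 500 kb made up 5.77% of histone gene loops in Ishikawa (3 loops), 34.1% in T-47D (106) and 44.9% in LNCaP (214), against 1.90%, 6.84% and 10.1% of all promoter loops. Long loops were mostly weak, and with a minimum of 10 read pairs per loop the medians fell to 16.1, 57.3 and 163 kb. Thinned to the depth of the T-47D list, LNCaP had an expected median of 174 kb, 487 joined pairs and 85.9% of read pairs between histone promoters. Its order against T-47D thus turned for the joined pairs and the share, while the median span was about the same. The gaps between runs set which distances these loops can span, and clusters of other gene families were not analysed here.

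Distal anchors were counted by the histone genes joined to them. Histone genes reached 13 distal anchors in Ishikawa, against 19 in T-47D and 73 in LNCaP, of which 11, 19 and 71 were joined to 2 or more histone genes. Genes that share an anchor are each counted, so a loop to an anchor with several histone promoters already joins several genes. Such anchors were 8 of 17, 11 of 24 and 11 of 19, so these counts do not show how many separate anchors met at a distal site. The loops to distal anchors numbered 24, 74 and 239. In T-47D an intergenic anchor between H1-2 and HFE (chr6:26065859-26069500) was joined to 32 of the 38 linked genes with 282 read pairs. Its strongest loop, with 54 read pairs, ran to H1-2. An intergenic anchor just beyond the third run was among the 3 distal anchors joined to the most genes in T-47D (chr6:27124550-27126099, 18 genes, 47 read pairs) and came first in LNCaP (chr6:27123975-27126349, 29 genes, 163 read pairs).

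In LNCaP an anchor over the long non-coding RNA genes GUSBP2, LARRPM and LINC00240 (chr6:26910605-26944714) was joined to 29 histone genes with 96 read pairs, and one at chr6:26326673-26332322 to 28 with 134. The Ishikawa anchor with the most partners (chr6:26264751-26269755), between H2BC9 and H2BC10, was joined to 7 genes with 31 read pairs. The annotation used here lacked the histone genes H2BC7, H2BC8 and H4C6 as protein-coding genes, and their RefSeq promoter sequences were located by exact match on GRCh37. H2BC7 and H2BC8 lay in anchors already counted for other histone genes, while H4C6 lay in a T-47D anchor counted as distal (chr6:26240209-26241563, 16 genes, 67 read pairs).

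Promoters of other genes were minor partners. Their read pairs are unscaled, and the LNCaP list is deeper than that of T-47D. Besides genes that share an anchor with a histone gene, HFE, whose protein takes part in the control of iron uptake, was joined to 21 histone genes in T-47D (122 read pairs) and 21 in LNCaP (125), and was not linked in Ishikawa. The zinc-finger genes ZNF184 and ZNF165 were joined to 14 and 8 histone genes in T-47D (25 and 11 read pairs) and to 27 and 17 in LNCaP (49 and 43). Histone genes that share an anchor were each counted. Fewer loops lay behind these numbers, 12 in T-47D and 8 in LNCaP for HFE and 7 and 11 for ZNF184. In T-47D, TRIM38 (11 read pairs) and BTN2A2 (7) were each joined to 3. In LNCaP, ABT1 was joined to 21 (85 read pairs) and HMGN4, a nucleosome-binding protein gene, to 14 (55). HMGN4 was also joined to 2 histone genes in Ishikawa, with 3 read pairs. All of these genes lie inside the histone interval, and 30 loops in T-47D and 99 in LNCaP joined a histone promoter anchor to the promoter of a gene outside the histone families.

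Loops were matched between lists when both anchors overlapped. Of the 311 histone gene loops in T-47D, 160 were found in LNCaP (51.4%, 95% Wilson interval 45.9 to 57.0), against 45.9% of other promoter loops. Of the 52 loops in Ishikawa, 18 were found in LNCaP (34.6%, 23.2 to 48.2, against 10.9%) and 17 in T-47D (32.7%, 21.5 to 46.2, against 5.37%). Among Ishikawa loops between histone promoters the shares were 12 of 27 in LNCaP and 16 of 27 in T-47D. The other 25 histone gene loops of Ishikawa were found in 6 cases in LNCaP (24%) and in 1 case in T-47D (4%), the latter below the 5.37% of other promoter loops. Intervals are wide, and loops that share anchors are not independent. Over the 108 loops between histone promoters found in both T-47D and LNCaP, the read pairs had a Spearman correlation of 0.60 across loops, and both sets of read pairs fell with span (-0.52 and -0.33). The same correlation was -0.10 over the 12 loops of Ishikawa found in LNCaP and -0.0067 over the 16 found in T-47D.

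Genes were then compared between lists by scaled read pairs, with a difference of 2-fold or more called and a gene without a loop counted as having 3 read pairs in that list. A ratio written as at least a value is taken against this floor, the support of 1 loop at the minimum, and would be smaller if a gene had several loops below the minimum or lay beside an anchor edge. The Ishikawa list sums 4 blocks of rows, and the minimum may have been applied within each block. A contact weak in every block could then be missing there, and ratios over Ishikawa would be smaller. T-47D was higher than Ishikawa for 38 of 46 histone genes tested (82.6%, against 48.2% of all genes tested) and lower for 7 (15.2%, against 23%). LNCaP was higher than Ishikawa for 37 of 46 (80.4%, against 48.1%) and lower for 6 (13.0%, against 31%). Since genes in 1 anchor have 1 value, counting them once left 24 and 20 higher calls. For the 19 genes linked in both lists, the median ratio was 39.8 for T-47D over Ishikawa (5.57 to 493), against 3.38 over all genes linked in both, and 20.8 for LNCaP over Ishikawa (1.88 to 119), against 2.22.

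The largest ratios of T-47D over Ishikawa were those of H1-2, at 493 (exact 95% interval 168 to 2397), which rests on 3 read pairs in Ishikawa, and of H2AC13, H2BC13 and H3C10, each at least 426-fold higher. H2BC13, H2AC13, H3C10, H2AC14 and H2BC14 were at least 402-fold higher in LNCaP than in Ishikawa. In the other direction H2AC7 was at least 7.77-fold, H4C7 at least 6.75-fold and H2AC8, H2BC11 and H2AC11 at least 5.18-fold higher in Ishikawa than in T-47D. H4C7, H3C7 and H2BC9 were at least 34.7-fold higher in Ishikawa than in LNCaP. Each gene higher in Ishikawa was one without an anchor over its promoter in the other list.

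Between T-47D and LNCaP the histone genes were closer. T-47D was higher for 16 of 44 genes (36.4%, against 34.6% of all genes) and LNCaP for 7 (15.9%, against 22.7%), shares near the background. An alternative chosen after the data were seen scaled to chromosome 6 loops whose left anchor, that with the lower coordinate, lay outside the histone interval. The split was then 23 higher in T-47D and 6 in LNCaP, and over all genes 45.0% and 15.3% were called. For the 32 genes linked in both lists the median ratio of T-47D over LNCaP was 1.45, against 1.56 over all genes. H3C7 and H2BC9 were at least 706-fold and H1-3 at least 564-fold higher in T-47D. H2AC7 was at least 161-fold and H2AC14 and H2BC14 at least 136-fold higher in LNCaP. The T-47D anchors nearest to these genes lay 474 bases from the window of H2AC7 and 3088 and 3333 bases from those of H2AC14 and H2BC14. Among genes linked in both lists the ratio ran from 12.1 for H4C12 (exact 95% interval 8.87 to 16.6) down to 0.36 for H3C4 (0.31 to 0.42).

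Near-identical sequence limits some of these values. Of the 50-base words in the promoter windows a median of 100% were unique in the genome, but 34.8% for H4C11 and H4C12, 57.2% for H2AC13 and 57.0% for H2AC14. All of these lie in the fourth run, where the median over the 16 genes was 98.9%. With words of 75 bases the values were 45.5% for H4C11, 45.3% for H4C12, 66.4% for H2AC13 and 66.2% for H2AC14. How far mapping moved the read pairs of H4C11 and H4C12, or bore on the lack of loops of the fourth run in Ishikawa, was not tested.

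Other genes of the histone system were read beside the cluster from lists fixed together with the members. Of 15 replication-dependent histone genes on other chromosomes, 7 were linked in Ishikawa, against 8 in T-47D and 12 in LNCaP. The chromosome 1 genes H2BC21, H2AC20 and H2AC21, which shared an anchor, had 3, 235 and 476 read pairs, lowest in Ishikawa. Other genes of this list stood otherwise: H2BC12L on chromosome 21 had 53 read pairs in Ishikawa and no loop in either other list, and H4C16 on chromosome 12 had 25 in Ishikawa, none in T-47D and 172 in LNCaP. Of 11 genes for histone variants, made throughout the cell cycle, 7, 9 and 11 were linked. H3-3B, which encodes the variant H3.3, had 224, 163 and 559 read pairs and H2AX, the variant phosphorylated at DNA breaks, 121, 200 and 262. Scaled to 1000000 read pairs these were 215, 464 and 310 for H3-3B and 116, 569 and 145 for H2AX, with Ishikawa lowest for both.

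Of 18 genes for the transcription and processing of histone mRNA, 13 were linked in Ishikawa, against 15 in T-47D and 18 in LNCaP. CDK2, whose kinase activates NPAT, had 295, 175 and 404 read pairs. HINFP, an activator of H4 genes, had 60, 145 and 176, and NPAT itself had 47, 23 and 122. Scaling turned some of these orders: CDK2 stood at 284, 498 and 224, HINFP at 57.7, 413 and 97.5, and NPAT at 45.2, 65.5 and 67.6. Of the 33 other protein-coding genes of the histone interval, 16, 17 and 22 were linked. The interval held the left anchor, the one with the lower coordinate, of 124 loops in the Ishikawa list, of 381 in T-47D and of 744 in LNCaP. Loops that reached it by their right anchor alone were not counted. Chromosome 6 as a whole took 4.38%, 5.03% and 6.63% of the read pairs of the lists.

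The rows of the Ishikawa list form 4 blocks, each sorted on its own, and no source says which sample a block came from. Histone gene loops appeared in each block, with 21, 6, 29 and 30 loops and 0.0275%, 0.0244%, 0.0460% and 0.0299% of its read pairs. Of the 52 loops, 27 were in 1 block, 18 in 2, 5 in 3 and 2 in all 4. The low share of histone gene read pairs in Ishikawa was thus found in every block. The share of these read pairs that ran between histone promoters differed among blocks, at 36.5%, 40.9%, 69.1% and 65.9%.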

How the data were processed

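The deposited values were counts of read pairs joining the 2 anchors of a loop, in 1 pooled list per cell line. The authors aligned reads to hg19 with HiC-Pro, called loops with hichipper and filtered them on read support and false discovery rate. No loop in the lists was supported by fewer than 3 read pairs. Rows of the same anchor pair in Ishikawa were summed, which left 163530 loops with 1040329 read pairs. T-47D had 42027 loops (351260 read pairs), and LNCaP had 149226 (1805322). A loop joined 2 different anchors of 1 chromosome. Anchor edges fell on GATC in 100% of cases on chromosome 6.

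Start sites came from the GENCODE annotation lifted to GRCh37, without mitochondrial genes. Each list pools its samples, so no test was run, and Wilson and exact intervals at 95% cover counting error only. A call at 2-fold needed more than 3 read pairs in the higher list. Python 3.11.15, numpy 2.4.6, pandas 2.3.3 and scipy 1.17.1 were used, and 200 of 200 planted genes were recovered in simulated lists. Named genes followed fixed rules: per list the genes, loops and partners with the most read pairs or links, and per comparison the largest ratios. Alternatives were minima of 5 and 10 read pairs, windows of 2 kb, 1 start site per gene, thinning to the shallowest list and leaving out Ishikawa parts. The members, lists and rules were chosen with earlier results of these data known.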

Additional observations from a re-analysis of the deposited data

Results flagged for a closer look

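Read pairs that joined an anchor over a histone promoter to itself were left out of every comparison, because the LNCaP list holds no such rows. They numbered 168 in Ishikawa and 1278 in T-47D. This was 33.2% of the read pairs at histone promoter anchors in Ishikawa, against 31.2% over that list, and 25.9% in T-47D, against 46.8%. In the fourth run 14 genes had such an anchor in T-47D and 0 in Ishikawa.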

How the results depend on the processing

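No paired analysis was possible because each list pools its samples and no column carries a replicate number. Of the 142 alternative values computed, 114 stayed within the set limits and 28 moved. The order of T-47D and LNCaP turned under some of them. After thinning to the shallowest list, T-47D, which left T-47D as it was, LNCaP had the higher share between histone promoters (85.9% against 79.3%), fewer joined pairs (487 against 564) and about the same median span (174 against 176 kb). With 10 or more read pairs per loop, 17 histone genes were linked in Ishikawa, 15 pairs were joined in that list and 280 in T-47D, and 3 of 43 genes tested were called higher in Ishikawa than in T-47D, against 35.1% of all genes tested. The share of read pairs between histone promoters in Ishikawa was 65% with 5 or more read pairs per loop, 65.7% with 10 or more, 64.7% after thinning to the shallowest list and 64.9% for loops in 2 or more blocks, and leaving out 1 block gave 53.9 to 65.2%. In T-47D it was 82.9% with 5 or more and 84.3% with 10 or more. In LNCaP, then above T-47D at 10 or more, it was 80.6% with 5 or more, 87.4% with 10 or more, 85.9% after thinning and 74.8% with 1 start site per gene. Joined pairs in Ishikawa were 28.0 after thinning, 38 for loops in 2 or more blocks and 54 to 67 without 1 block.

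The median span with 5 or more read pairs was 20.4, 101 and 333 kb in Ishikawa, T-47D and LNCaP, and with 10 or more it was 16.1, 57.3 and 163 kb. Thinning gave 18.7 kb in Ishikawa and 174 kb in LNCaP, loops in 2 or more blocks 18.7 kb, and leaving out 1 Ishikawa block 27.1 to 31.6 kb. Counting genes that share their anchors once, an alternative chosen after seeing the data, gave 24 genes higher in T-47D and 20 in LNCaP than in Ishikawa. Beyond the alternatives with a higher minimum or less depth, which keep fewer loops by construction, the cause was not tested. Of histone gene loops, 34.6%, 22.5% and 22.4% stood at the minimum of 3 read pairs in Ishikawa, T-47D and LNCaP, against 45.5%, 29.7% and 25.9% over the whole lists.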
